A study of Mus musculus with 2 samples.

Results

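Short annotated features, those with an exonic length under 300 bases, were examined in the transcriptome of MIN6 cells, a mouse insulinoma line used as a model of the pancreatic beta cell. The deposited gene table listed 30868 features. Of these, 2301 were shorter than 300 bases and did not carry a mitochondrial name beginning with mt-, while 23 further short features did and were left out. The 2301 features were split by name into 535 Mir features (microRNA precursors), 119 Snora or Snord features (small nucleolar RNAs) and 1647 others. Their lengths ran from 27 to 299 bases with a median of 116. The study asked how lactate dehydrogenase A bears on histone H3K9 lactylation and beta cell function under glucotoxic conditions. RNA was sequenced from 1 library labelled high glucose and palmitate, and 1 labelled normal, called treated cells and normal cells here after these labels, with no replicate of either. The treatment text on both records is the same and gives 33.3 mmol/l glucose and 0.4 mmol/l palmitate with 0.5% BSA, so no separate description of the medium of normal cells, and no duration, is given. With 1 library per group there is no replicate check, no p-value is given, and every interval of a ratio below covers counting error only.

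MicroRNAs are cut from hairpins in longer primary transcripts, which may be genes of their own or the introns and exons of a host gene, and the mature strand pairs with target mRNAs mainly through its seed. Box C/D snoRNAs guide ribose methylation and box H/ACA snoRNAs guide pseudouridylation of ribosomal and spliceosomal RNA, and in mammals most of them are released from introns of ribosomal protein genes and of non-coding host genes such as Gas5. A library made for mRNA reads mainly the long transcripts in which these features lie, and mature microRNAs are usually measured with dedicated small RNA libraries.

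The mature sequences of the microRNAs on which the results turn are shown with the seed, bases 2 to 8, in capitals. Entries for 488 of the 535 Mir features were found by symbol in RefSeq (build GRCm38.p6), and in all 459 cases where a hairpin was listed its length equalled that of the feature. The first pair shares a seed and a primary transcript, the second pair shares a seed and had fewer reads in treated cells, and the rest carried the most reads or the widest differences.
miR-29b-3p: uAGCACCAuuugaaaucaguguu
miR-29c-3p: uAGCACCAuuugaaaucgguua
miR-762: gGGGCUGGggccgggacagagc
miR-7648-3p: aGGGCUGGgcccgggacgcgg
miR-146a-5p: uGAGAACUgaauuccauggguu
miR-22-3p: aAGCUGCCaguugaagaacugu
miR-125a-5p: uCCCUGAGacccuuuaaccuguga
let-7k: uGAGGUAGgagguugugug
miR-704: aGACAUGUgcucugcuccuag
miR-8104: cAGGAUGAgguggagugcagcg
miR-3064-5p: uCUGGCUGuuguggugugcaaa
miR-3082-5p: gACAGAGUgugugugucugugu
miR-7654-3p: cGAGCGGGagcgcgccucgucc
miR-5121: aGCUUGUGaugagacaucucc

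For the snoRNAs, transcripts of 109 of the 119 members were found by symbol in GENCODE M21 (build GRCm38), and all 109 had the length of the feature. In box C/D sequences the capitals mark TGATGA starting within the first 20 bases (box C) and the last CTGA within the final 20 bases (box D). In box H/ACA sequences they mark ACA within the last 10 bases. Both boxes were found on the given strand in 46 of 72 Snord sequences, box C in 48 and box D in 70. Among the 37 Snora sequences, 0 held box C, 4 held box D, and 35 held the ACA. Snord33 is shown because a microRNA feature runs across it, the Gas5 members (Gm23212, Snord78, Snord80) because neighbours within 1 host differed, and the last 3 because their ratios were the highest or their read counts among the largest.
Snord33: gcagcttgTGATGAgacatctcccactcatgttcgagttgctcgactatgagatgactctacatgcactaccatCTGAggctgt
Gm23212: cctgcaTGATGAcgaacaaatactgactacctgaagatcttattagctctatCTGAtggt
Snord78: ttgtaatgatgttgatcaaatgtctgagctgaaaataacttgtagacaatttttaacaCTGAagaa
Snord80: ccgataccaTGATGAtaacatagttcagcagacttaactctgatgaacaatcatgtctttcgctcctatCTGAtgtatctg
Snord21: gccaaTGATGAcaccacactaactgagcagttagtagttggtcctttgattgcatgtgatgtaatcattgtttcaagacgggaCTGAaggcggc
Snord22: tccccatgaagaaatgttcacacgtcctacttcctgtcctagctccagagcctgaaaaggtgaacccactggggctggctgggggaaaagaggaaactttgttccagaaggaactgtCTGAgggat
Snora43: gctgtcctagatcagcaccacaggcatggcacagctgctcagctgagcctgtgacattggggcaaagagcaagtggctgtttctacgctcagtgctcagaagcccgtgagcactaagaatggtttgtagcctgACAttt

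Values were deposited as RPKM, in which reads are divided by the length of the feature and by all reads of the library. Multiplied by length, every value returned a whole number of reads, to within 3.7e-05 of a read, with totals of 43727919 reads in treated cells and 44149406 in normal cells. Beta cell genes were read at levels that ranged widely. Insulin 2 (Ins2) stood at 725 RPKM in treated cells, against 1197 in normal cells, and the granule protein gene Chga at 4644 against 4740 RPKM. Lower levels were read for Ins1, at 34.8 RPKM in treated cells, against 66.0, and Nkx6-1, at 24.2 against 27.3. Mafa stood at 12.2 RPKM in treated cells, against 17.1, and Slc2a2 at 10.1 against 13.0. Markers of cells outside the endocrine islet were below 1 RPKM. The highest was Amy1 (acinar), at 0.849 RPKM in treated cells, against 0.815 in normal cells. Krt19 (duct) had no read in either library, Ptprc (leukocyte) 0.0787 against 0.0705 RPKM, Pecam1 (endothelium) 0.103 against 0.0873 RPKM and Col1a1 (fibroblast) 0.272 against 0.297 RPKM. Hormone genes of other islet cells were also read, glucagon (Gcg) at 4.68 RPKM in treated cells, against 7.31, and somatostatin (Sst) at 9.67 against 7.45. The part of these cells in the results was not tested. In bulk RNA of this kind, fewer cells with a transcript and less of it per cell cannot be told apart.

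Short features took 0.418% of all reads in treated cells and 0.401% in normal cells. The others carried most of this, 0.356% against 0.342%, the Mir features 0.0583% against 0.0569% and the Snora and Snord features 0.00350% against 0.00293%. Reads were present in 1882 of the 2301 members, 1543 in treated cells and 1522 in normal cells, and 419 had none in either. A mean of at least 1 RPKM over both libraries was reached by 719 members, made up of 239 Mir, 57 Snora or Snord and 423 others. For a feature of 75 bases, the median length of the Mir class, 1 RPKM is worth only 3.31 reads in normal cells, and 356 members had 40 reads or more over both libraries.

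The position of each member was read from the coordinates in the table. A member was called exonic when all of its bases lay in exons of 1 longer feature, of at least 300 bases, on the same strand; that feature is its host. By this rule 389 members were exonic, 142 lay partly in such exons, 707 lay in introns only and 1063 lay outside any longer feature on their strand. The classes differed in where they lay. Of the 119 Snora and Snord features 62 were exonic, 7 partial, 47 intronic and 3 outside, whereas of the 535 Mir features 142 were exonic, 62 partial, 247 intronic and 84 outside. Of the 1647 others, 976 were outside, 413 intronic, 185 exonic and 73 partial.

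Exonic members of the Mir and snoRNA classes lay in different parts of their hosts. GENCODE M21 was consulted by symbol for the part of the host in which each member lay. Of the 142 exonic Mir features, 27 overlapped coding sequence, 38 untranslated exon parts, 30 exons of non-coding transcripts and 32 only transcripts annotated as retained introns. Of the 62 exonic Snora and Snord features, 38 lay only in retained intron transcripts and 1 overlapped coding sequence. A further 8 lay in exons of non-coding transcripts and 3 in untranslated exon parts. For 5 the host had no exon over the member in GENCODE M21, and 7 could not be matched by symbol.

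Levels relative to the host, both in RPKM, differed with these annotations. Among hosts of mean RPKM 10 or more, the 12 Mir features in coding sequence had a median level 3.69 times that of the host, and 8 of the 12 were at or above the host. The 11 Mir features lying only in retained intron transcripts had a median of 0.0578 times the host, and 0 were at or above it. Intronic Mir features had a median of 0.0393 (n = 107), with 4 at or above the host, namely Mir6999 in Dgkz, Mir6902 in Ppp1r7, Mir7001 in Cd82 and Mir7028 in Tchp. Exonic Snora and Snord features had a median of 0.0345 (n = 37) and intronic ones 0.00756 (n = 39). For the others the medians were 0.285 (n = 82) for exonic and 0.0108 (n = 164) for intronic members. These levels are counts divided by the member's own length, and the sources used here do not say how a read that only partly covers a short feature was counted.

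**Figure D1:**
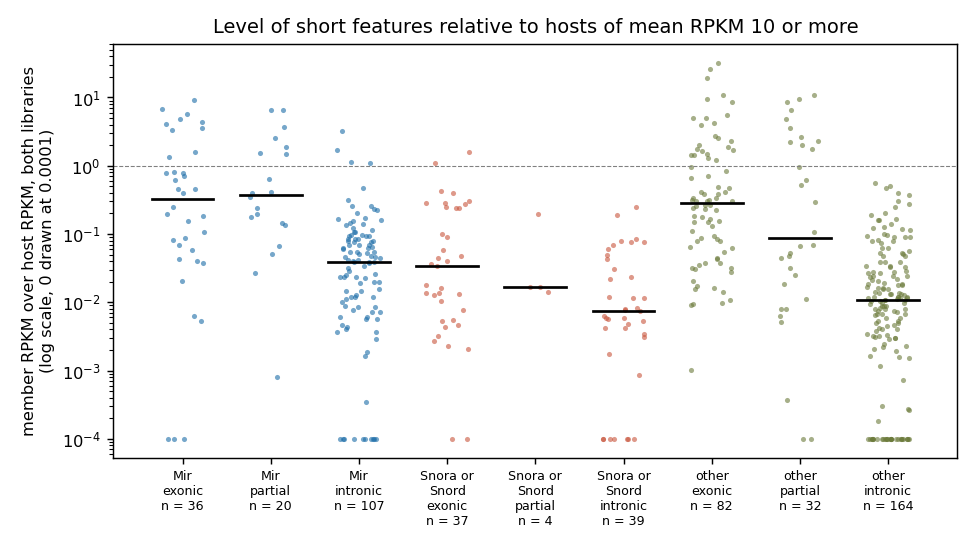
RPKM of each short feature divided by the RPKM of its host over both libraries (log scale), by class and position, for hosts of mean RPKM 10 or more; points are features, black lines medians. Exonic Mir features and exonic others spread on both sides of 1, with medians of 0.322 and 0.285, while intronic features in all 3 classes and exonic snoRNAs have medians below 0.04.

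No exonic member had more reads than its host in either library. Of 389 exonic members, 364 had reads. Gm54587, which lies within Rn7s1, a gene of the signal recognition particle RNA, had the same reads as its host, 36 in treated cells and 14 in normal cells, so both entries give 1 measurement. Since Rn7s1 and Rn7s2 are near-identical copies, the assignment of these reads is uncertain. In 34 pairs, short features shared bases with each other on 1 strand, and several pairs had equal reads, such as Mir677 and Gm55458 with 7 reads each in both libraries.

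Differences between the libraries were read on the scale of log2(RPKM + 0.5), treated over normal. Across the 719 members with a mean of at least 1 RPKM the median was 0.01, against 0.00 over all 13947 features that passed the same limit. At 2-fold, 50 of the 719 short features were higher in treated cells (6.95%, against a background of 0.538% of all 13947 features) and 37 were lower (5.15%, against 0.366%). Among the 13207 features of at least 300 bases the shares were 0.189% higher and 0.0833% lower. The short features supplied 50 of the 75 higher and 37 of the 51 lower features of the whole table.

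The 2-fold differences sat among the members with few reads. Of the 57 members with 1 to 9 reads over both libraries, 11 were higher and 8 lower by 2-fold, and of the 306 with 10 to 39 reads, 34 were higher and 26 lower. Among the 138 with 40 to 99 reads, 5 were higher and 3 lower, and among the 218 with 100 or more reads, 0 were higher and 0 lower. Over longer features with 100 or more reads, 19 of 12870 were higher and 5 lower. At 40 to 99 reads, 6 of 307 longer features were higher and 4 lower. At 10 to 39 reads, 0 of 28 longer features were higher and 2 lower. The most reads held by any member of the 50 higher ones was 63, and of the 37 lower ones 78.

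A 95% exact counting interval for the ratio of RPKM (Clopper-Pearson, from the share of a feature's reads that came from treated cells) gave a second rule. The interval lay above 1 for 64 of the 719 members (8.90%, against 22.0% of all 13947 features) and below 1 for 55 (7.65%, against 22.3%). Such intervals narrow with more reads, and depth differed between the sets. The median was 39 reads over both libraries for the 719 members, against 1950 for all 13947 features. Of the 50 members higher by 2-fold the interval excluded 1 in 29, and of the 37 lower ones in 16. With the reads halved, as if each pair of mates were 1 count, 22 intervals lay above 1 and 22 below. The share over all features was not computed with reads halved.

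**Figure D2:**
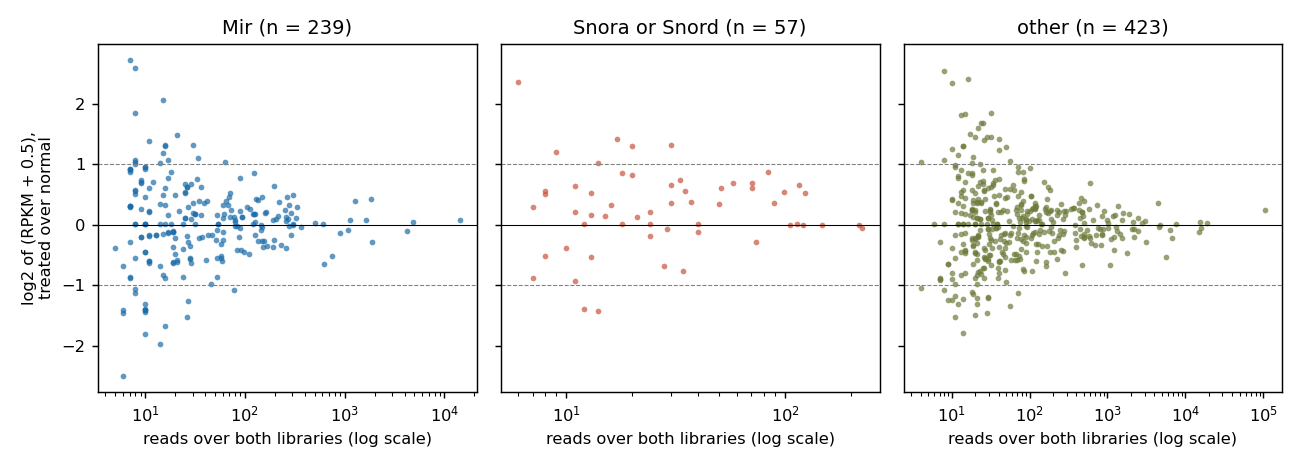
Difference of each short feature, log2 of (RPKM + 0.5), treated over normal, against its reads over both libraries (log scale), by class; dashed lines mark 2-fold and each point is 1 feature of mean RPKM 1 or more. The spread narrows as reads increase, and no feature with 100 or more reads lies beyond the dashed lines.

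Read counts in short features were less often even than in longer ones. Of counts from 1 to 20 reads, 44.9% were even in features of up to 70 bases, 52.8% at 71 to 90 bases, 54.9% at 91 to 120, 56.7% at 121 to 180 and 68.3% at 181 to 299. In features over 2000 bases 82.9% were even. By class the share was 49.5% for Mir, 55.8% for Snora and Snord and 59.5% for the others. The part that mates counted as separate reads have in these shares was not tested.

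**Figure D3:**
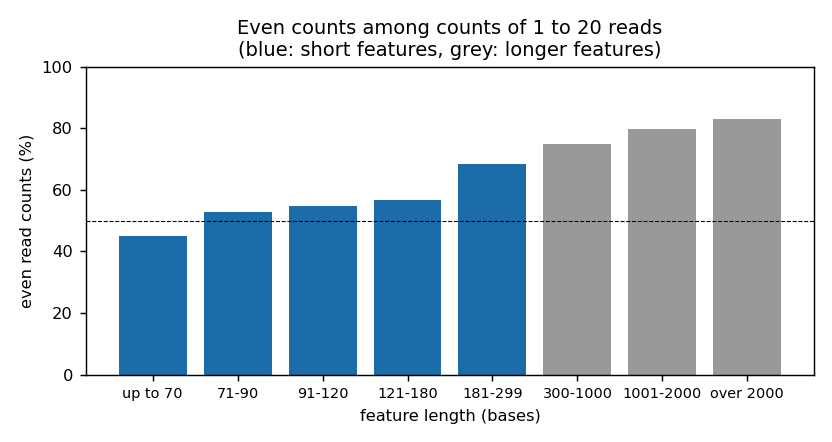
Share of even numbers among read counts of 1 to 20 (percent, both libraries) by feature length in bases; blue bars are short features, grey bars longer ones, and the dashed line marks 50%. The share is 44.9% in the shortest features and 82.9% in the longest.

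The shares by class stand beside 0.538% higher and 0.366% lower by 2-fold, and 22.0% and 22.3% by interval, over all features. By class, 17 of 239 Mir features were higher by 2-fold (7.11%) and 16 lower (6.69%), with a median log2 difference of 0.03 and 135 above 0; the interval lay above 1 for 15 (6.28%) and below 1 for 14 (5.86%). Of the 57 Snora and Snord features, 6 were higher (10.5%) and 2 lower (3.51%), the median was 0.29 and 40 were above 0 (70.2%, against 50.7% over all features). Of the 423 others, 27 were higher (6.38%) and 19 lower (4.49%), with a median of 0.01; the interval lay above 1 for 42 (9.93%) and below 1 for 40 (9.46%).

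The Mir features with the most reads lay in exons of abundant protein-coding genes. Mir3064, at chr11:106673519-106673585 on the reverse strand of GRCm39, overlaps coding sequence of Ddx5, an RNA helicase that also takes part in microRNA processing. It had 7275 reads in treated cells, against 6944 in normal cells, or 2483 against 2348 RPKM, a ratio of 1.06 (95% interval 1.02 to 1.09) beside 1.02 for Ddx5. Mir3082 lies in Stub1, which encodes a ubiquitin ligase that works with heat shock chaperones, and had 2426 reads in treated cells, against 2374 in normal cells, with a ratio of 1.03 (0.975 to 1.09). Mir7654 lies in Arglu1, a gene with roles in splicing and transcription. It had 836 reads in treated cells, against 1033 in normal cells, a ratio of 0.817 (0.745 to 0.896), while Arglu1 itself was at 0.939. Mir5114 lies in coding sequence of Scd2, a stearoyl-CoA desaturase, and had 394 RPKM in treated cells, against 293 in normal cells. Its ratio of 1.34 (1.22 to 1.47) stood beside 1.42 for Scd2, at 84.1 against 59.2 RPKM. Mir5114 and Mir762, described below, were chosen for mention after their values were seen.

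Mir5121 and Snord33 differed widely in reads although they share bases. Both lie in Rpl13a, which encodes a protein of the large ribosomal subunit and hosts a snoRNA cluster. Mir5121 spans chr7:44776342-44776415 and Snord33 chr7:44776288-44776371, both on the reverse strand, so that the last 30 bases of the Mir5121 hairpin, in capitals here, are the first 30 of Snord33.
Mir5121 hairpin: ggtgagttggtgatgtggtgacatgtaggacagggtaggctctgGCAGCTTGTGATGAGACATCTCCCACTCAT
The letters of mature miR-5121 lie at bases 3 to 23 of Snord33 and so across its box C. Mir5121 had 2008 reads in treated cells, against 2178 in normal cells, a ratio of 0.931 (0.876 to 0.989) beside 0.959 for Rpl13a, and the interval included 1 when reads were halved as pairs. Snord33 had 19 reads in treated cells, against 21 in normal cells. If a read that touches both was counted in both, at most 19 of the 2008 and 21 of the 2178 reads of Mir5121 touched the 30 shared bases, and the others lay over the remaining 44 bases. Other matches of this kind had few reads: Mir664 with Snora36b had 4 reads in treated cells, against 1 in normal cells, for both features, Mir1291 had 5 against 6 and Snora34 had 5 against 7, and the Mir3084 copies that match Snora19 had 0 against at most 2.

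Mir146, the precursor of miR-146a, which is known for feedback on inflammatory signalling, was the Mir feature with the most reads among those outside any longer feature on their strand. It lies at chr11:43265224-43265288. It had 722 reads in treated cells, against 557 in normal cells, or 254 against 194 RPKM, a ratio of 1.31 (1.17 to 1.46). The Mir features partly in exons with the most reads differed less. Mir700 in Rcan3 had 843 reads in treated cells, against 807 in normal cells, and Mir7578 in Brd3 had 518 against 553. Both intervals included 1, as did that of Mir8094 in Ddx39b, with 426 reads in treated cells, against 473. Mir704, Mir761 and Mir125a, also partly in exons but with fewer reads, differed more and are given below.

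Higher ratios among Mir features with 40 reads or more were found for precursors in non-coding and coding hosts. Mir22 lies in an exon of its own host transcript Mir22hg. It had 43 reads in treated cells, against 20 in normal cells, a ratio of 2.17 (1.25 to 3.90), beside 1.43 for Mir22hg. Mir704 lies partly in exons of Pdia4, a protein disulfide isomerase of the endoplasmic reticulum, and had 80 reads in treated cells, against 44, a ratio of 1.84 (1.26 to 2.72) beside 1.22 for Pdia4. Mir761 in Nrd1 had 57 reads in treated cells, against 33 in normal cells, a ratio of 1.74 (1.12 to 2.76). For Mir22 and Mir761 the interval included 1 when reads were halved as pairs.

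The miR-29 precursors of chromosome 1 had different ratios, with intervals that overlap. Mir29b-2 and Mir29c lie close together in exons of A330023F24Rik, at chr1:194719348-194719428 and chr1:194719855-194719942, and their main strands share the seed AGCACCA. Mir29c had 119 reads in treated cells, against 76 in normal cells, a ratio of 1.58 (1.18 to 2.14). Mir29b-2 had 153 reads in treated cells, against 154, a ratio of 1.00 (0.797 to 1.26). The host stood at 1.23, inside both intervals.

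Lower ratios were found for Mir8104, Mir7648, Mir5046 and Mir7k. Mir8104 lies in Ppm1h, a protein phosphatase gene, and had 239 reads in treated cells, against 379 in normal cells. Its ratio of 0.637 (0.539 to 0.751) stood below the 0.838 of Ppm1h. Mir7k, the precursor of let-7k, lies outside any longer feature and had 24 reads in treated cells, against 54, a ratio of 0.449 (0.265 to 0.738). Mir5046 in Rps6ka4, a stress-activated kinase gene, had 15 reads in treated cells, against 31, and Mir7648 in Alg10b, a glucosyltransferase gene, had 18 against 34. For Mir5046 and Mir7648 the interval included 1 when reads were halved. Mir762, which shares the seed GGGCUGG with Mir7648, had 308 reads in treated cells, against 444 in normal cells, a ratio of 0.700 (0.604 to 0.812). The remaining feature with that seed, Mir6940, had 1 read in treated cells and 0 in normal cells.

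**Figure D4:**
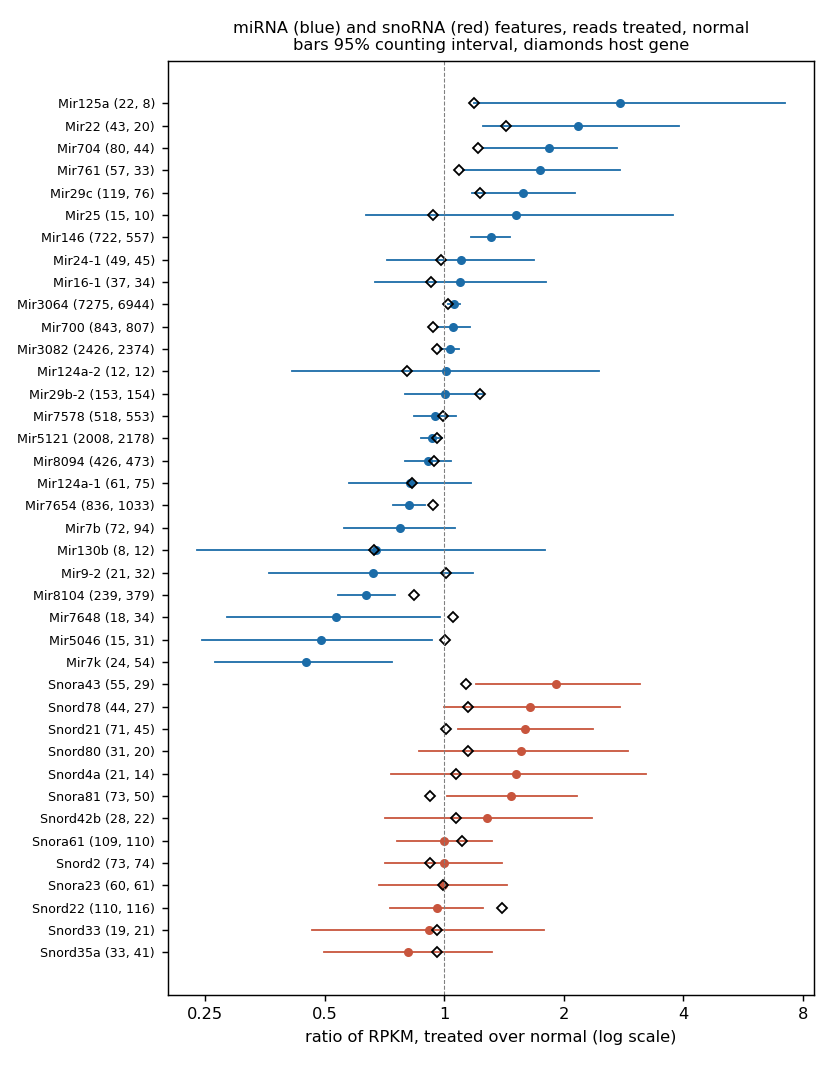
Ratio of RPKM, treated over normal (log scale), for 39 named Mir (blue) and Snora or Snord (red) features, with reads in the treated and then normal cells in parentheses; bars are 95% counting intervals and open diamonds are the host's ratio. Mir3064, Mir3082 and Mir5121 have narrow bars close to 1, while Mir125a, with 22 and 8 reads, has a bar that runs from 1.19 to 7.21.

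MicroRNAs known from islets were largely at the edge of detection as precursors. Of 44 symbols in the islet list, 24 were short features of the table, 19 had reads and 10 passed the RPKM limit, 6 above 0 and 4 below. The 6 include Mir124a-2 and Mir141, with 12 and 5 reads in each library, and Mir29b-2, with 153 reads in treated cells, against 154. Summed reads of the list were 520 in treated cells, against 516 in normal cells, a ratio of 1.02 (0.899 to 1.15). Mir29b-2 and Mir29c, described above, belong to this list and supplied 272 of the 520 and 230 of the 516 reads, and Mir29c was its 1 member with an interval above 1. Mir375, whose mature form is among the best known of the beta cell, had 2 reads in each library. Mir7b, of the miR-7 family that is abundant in endocrine cells, had 72 reads in treated cells, against 94, a ratio of 0.773 (0.561 to 1.06). Mir124a-1, in its host Mir124a-1hg, had 61 reads in treated cells, against 75, a ratio of 0.821 (0.576 to 1.17) beside 0.828 for the host. Mir9-2 had 21 reads in treated cells, against 32, Mir24-1 had 49 against 45, Mir124a-2 12 against 12 and Mir130b 8 against 12, and the intervals of these 4 included 1.

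The precursors of the let-7, miR-99 and miR-125 families had more reads in treated cells as a group, on small counts. Of 20 symbols 13 were in the table, 12 had reads and all 5 that passed the limit were above 0. Of these 5, Mir125b-2 had 4 reads in each library and Mirlet7d had 5 in each. They stood above 0 only because the treated library has fewer reads in total. The 13 features summed to 63 reads in treated cells, against 28 in normal cells, a ratio of 2.27 (1.43 to 3.68). Mir125a supplied 22 of the 63 and 8 of the 28, a ratio of 2.78 (1.19 to 7.21), partly in exons of Spaca6, which stood at 1.19; its interval included 1 when reads were halved as pairs. Mir98 in an intron of Huwe1 had 9 reads in treated cells, against 2, with an interval of 0.940 to 43.2. Mir7k, which carries the let-7 seed but was not in this list, had the opposite direction. Of the stress list of 19 symbols, 9 were in the table, with 84 reads in treated cells, against 70 in normal cells, a ratio of 1.21 (0.872 to 1.69); Mir16-1 had 37 against 34. Of the miR-17/92 list 3 of 18 symbols were in the table, with 16 reads in treated cells, against 14, 15 of the 16 and 10 of the 14 from Mir25. Of the Dlk1-Dio3 list 1 of 44 was, Mir127, with 1 read in treated cells and 0 in normal cells.

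Snora and Snord features summed to 1532 reads in treated cells, against 1292 in normal cells, a ratio of 1.20 (1.11 to 1.29). The sum did not rest on 1 feature: leaving out each feature in turn gave ratios from 1.18 to 1.22. Box C/D features had 961 reads in treated cells, against 785, a ratio of 1.24 (1.12 to 1.36), and box H/ACA features 571 against 507, a ratio of 1.14 (1.01 to 1.28). Exonic members had 1172 reads in treated cells, against 951, a ratio of 1.24 (1.14 to 1.36) and a median log2 difference of 0.37 with 26 of 34 above 0. Intronic members had 278 reads in treated cells, against 283, a ratio of 0.992 (0.837 to 1.17). The hosts of the exonic members had a median log2 difference of 0.06, with 27 of 37 above 0. Members whose host symbol was Rpl or Rps followed by a digit, as for most ribosomal protein genes, were at 1.19 (1.02 to 1.38). Those with other hosts were at 1.20 (1.10 to 1.31).

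A further 204 features that GENCODE M21 types as snoRNA carry other names, nearly all of them Gm numbers, and so were counted among the others. They had 2155 reads in treated cells, against 2036 in normal cells, a ratio of 1.07 (1.01 to 1.14), with a median log2 difference of 0.03 and 39 of 66 above 0. The difference between the Snora and Snord features and these was not tested.

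Of the 57 Snora and Snord features that passed the limit, 7 had an interval above 1 (12.3%, against 22.0% of all features) and 1 had an interval below 1 (1.75%, against 22.3%). Their median was 24 reads over both libraries, against 1950 for all features, so these shares are not at equal depth. Snora43, at chr2:26527859-26527997 in an exon of ENSMUSG00000120369, had 55 reads in treated cells, against 29 in normal cells, a ratio of 1.91 (1.20 to 3.11), beside 1.14 for its host. Snora81 in Eif4a2, a helicase of translation initiation, had 73 reads in treated cells, against 50, a ratio of 1.47 (1.01 to 2.16), while Eif4a2 stood at 0.922. Snord21 in Rpl5, a large-subunit ribosomal protein gene, had 71 reads in treated cells, against 45, a ratio of 1.59 (1.08 to 2.37), while Rpl5 stood at 1.01. For these 3 the interval included 1 when reads were halved as pairs. The other 4 had few reads: Snord104 had 22 in treated cells, against 8, Snord12 in Zfas1 had 15 against 5, Snord64 13 against 4 and Snord58b 6 against 0. Snora30 in an intron of Srcap, with 2 reads in treated cells and 10 in normal cells, was the 1 with an interval below 1.

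Among the exonic snoRNAs with the most reads, 3 were close to 1, unlike Snora81. Snord22, in the non-coding host Snhg1, had 110 reads in treated cells, against 116, a ratio of 0.957 (0.731 to 1.25), although Snhg1 itself stood at 1.40, above that interval. Snora61 in Snhg12 had 109 reads in treated cells, against 110, a ratio of 1.00 (0.761 to 1.32), and Snord2 in Eif4a2 had 73 against 74. Outside exons, Snora23 in Ipo7 had 60 reads in treated cells, against 61, and Snord35a in Rpl13a 33 against 41, a ratio of 0.813 (0.498 to 1.32). Snord42b and Snord4a, both in Rpl23a, had 28 against 22 and 21 against 14 reads, with ratios of 1.28 (0.709 to 2.36) and 1.51 (0.734 to 3.22).

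Members of 1 host differed among themselves. Gas5, a non-coding RNA whose introns hold a series of box C/D snoRNAs, had 9 short members with 563 reads in treated cells, against 538 in normal cells, a sum ratio of 1.06 beside 1.15 for Gas5. Gm26224 had 54 reads in treated cells, against 29, a ratio of 1.88 (1.18 to 3.06). Gm23212, at chr1:160864252-160864311, had 22 reads in treated cells, against 50, a ratio of 0.444 (0.256 to 0.747). Both are typed as snoRNA in GENCODE M21, and the intervals of the pair do not overlap. They are the highest and lowest ratios among the Gas5 members that passed the limit, and were set side by side after values were seen. The interval of Gm23212 stayed below 1 when reads were halved as pairs. That of Gm26224 was not examined singly in this way. Snord78 and Snord80 had 44 against 27 and 31 against 20 reads, with ratios of 1.65 (0.996 to 2.76) and 1.56 (0.864 to 2.90), and Gm22357, with the most reads of the cluster, had 262 against 281. Of the Gas5 list of 10 snoRNA symbols 3 were in the table under those names, with 77 reads in treated cells, against 47, a ratio of 1.65 (1.14 to 2.43); this list leaves out the Gm-numbered members.

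In Snhg1, 8 members summed to 340 reads in treated cells, against 305, a ratio of 1.13, lower than the 1.40 of the host; Gm24452 had 95 reads in treated cells, against 58, a ratio of 1.65 (1.18 to 2.33). The Snhg1 list of 8 symbols had 1 in the table, Snord22. In Nop56, which encodes a core protein of box C/D particles, 5 members summed to 181 reads in treated cells, against 192, and ranged from 0.650 for Gm23187, with 47 against 73 reads, to 1.29 for Snord57, with 50 against 39. In Eif4a2, 6 members summed to 362 reads in treated cells, against 327, a ratio of 1.12; of these Gm55082 and Snora81 share 103 bases and are not separate measurements. The 4 Rpl13a snoRNAs had 58 reads in treated cells, against 69, a ratio of 0.849 (0.588 to 1.22). In Rpl17, 3 members summed to 31 reads in treated cells, against 12, a ratio of 2.61, while Rpl17 stood at 1.04. Of these, Gm26202 had 24 reads in treated cells, against 8, a ratio of 3.03 (1.32 to 7.80). Gm23301 went the other way, with 1 read in treated cells, against 4. The imprinted snoRNA list had 2 of 8 symbols in the table, Snord64 and Snord107, with 17 reads in treated cells, against 6, a ratio of 2.86 (1.08 to 8.86).

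The listed small Cajal body and small particle RNAs had few reads. Of the 13 scaRNA symbols 6 were short features of the table, with 11 reads in treated cells, against 14 in normal cells. Of 23 symbols for spliceosomal and other small particle RNAs 13 were, with 13 reads in treated cells, against 6, the most in Rnu11 of the minor spliceosome with 6 against 0 and Rnu7 of histone mRNA processing with 2 against 5. By GENCODE M21 type, which takes in Gm-numbered features, 16 members typed as scaRNA had 69 reads in treated cells, against 73, a ratio of 0.954 (0.677 to 1.34), and 225 typed as snRNA had 779 against 853, a ratio of 0.922 (0.836 to 1.02).

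Among the others, 1 feature stood above all genes. Gm54730, a feature of 133 bases in an exon of Hsp90b1, the chaperone GRP94 of the endoplasmic reticulum, had the highest RPKM of the table in both libraries, 9907 in treated cells and 8332 in normal cells. Its 57616 reads in treated cells, against 48926 in normal cells, were 37.0% and 32.4% of all reads in its class. They were 35.8% of the reads of Hsp90b1 in treated cells and 36.6% in normal cells, on 3.30% of its length. The ratio was 1.19 (1.17 to 1.20) beside 1.21 for Hsp90b1. Without Gm54730 the summed ratio of all short features was 0.986 (0.978 to 0.993), below 1, where it was 1.04 (1.03 to 1.05) with it.

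The other features with high levels given here lay wholly or partly in exons. Gm17036 and Gm17606, given at the end, lay outside longer features. Gm54878 in Rpl19, a large-subunit ribosomal protein gene, had 2765 RPKM in treated cells, against 2726, a ratio of 1.01 beside 1.01 for the host. Gm54499 in Ahsa1, a co-chaperone of Hsp90, had 1139 RPKM in treated cells, against 1127, at 32.2 times the RPKM of Ahsa1, and held 56.3% of the host's reads in treated cells and 55.7% in normal cells on 1.74% of its length. Gm24574, partly in exons of the RNA-binding protein gene Hnrnpa3, had 2234 RPKM in treated cells, against 2435, a ratio of 0.918 (0.889 to 0.948) beside 0.985. Gm55891, partly in exons of the gamma-actin gene Actg1, had 838 RPKM in treated cells, against 972, a ratio of 0.862 (0.821 to 0.904) beside 0.841.

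All 3 members in Neat1, the scaffold RNA of paraspeckles, were higher in treated cells. Gm55525 had 474 RPKM in treated cells, against 368, a ratio of 1.29 (1.21 to 1.37), Gm55524 was at 1.24 and Gm55523 at 1.20, around the 1.23 of Neat1. In Malat1, Gm55521 had 411 RPKM in treated cells, against 394.

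The widest differences among the others with 40 reads or more fell on small counts. Gm54952 in Trim12c had 30 reads in treated cells, against 10, a ratio of 3.03 (1.44 to 6.95) beside 1.35 for the host. Gm43835 had 30 against 11 reads and Gm45355 40 against 16, both outside longer features. On the lower side, 1700016J18Rik had 13 reads in treated cells, against 43, a ratio of 0.305 (0.151 to 0.578), Gm23751 in an intron of the chromatin remodeller Chd4 had 16 against 34, and Gm13392 had 30 against 54. With reads halved the interval included 1 for Gm43835, Gm23751 and Gm13392.

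Members with enough reads were set beside their hosts. Of 144 exonic members with 40 reads or more, in 115 hosts, the host's ratio lay inside the member's interval for 120, and 95 had the sign of the host. The median absolute difference in log2 ratio was 0.22. Across these 144 features Pearson's r was 0.43 and Spearman's rho 0.39, as a description, since a member's reads may also be reads of its host and members of 1 host share it. The host's ratio lay inside the interval for 42 of 48 Mir, 12 of 16 Snora or Snord and 66 of 80 others, and for 29 of 34 intronic members, where r was 0.16. Over the 16 exonic snoRNAs r was -0.01, with 13 of 16 on the side of the host.

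**Figure D5:**
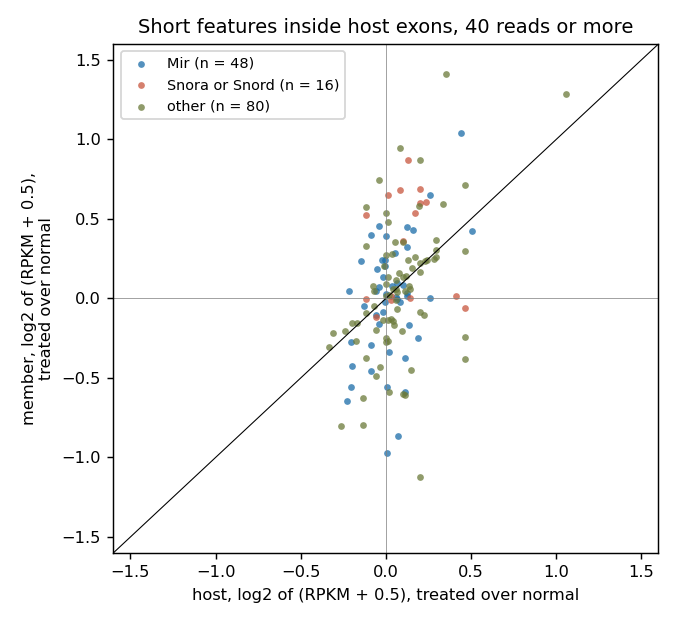
Log2 of (RPKM + 0.5), treated over normal, of exonic short features with 40 reads or more (vertical axis) against that of their hosts (horizontal axis); colours are the classes and the diagonal marks equality. Hosts span a narrower range than their members, and the correlation over the 144 features is 0.43.

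Features near the length limit had few reads. Of 7 features of 298 or 299 bases, 1 passed the RPKM limit, Gm29008 with 31 reads in treated cells, against 21. Of 14 features of 300 or 301 bases, just outside, 6 passed, led by Gm50478 at 68.1 RPKM in treated cells, against 77.2.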

How the data were processed

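RNA from MIN6 cells was read in 1 library per group; per the labels' protocols it was extracted with Trizol and made into libraries with a stranded mRNA kit. The deposited RPKM table holds 1 column per library; per the submitters' processing notes the authors used Trimmomatic 0.36, edgeR 3.12.1 and build GRCm39. The sources used here do not name the aligner, the counting rule, its use of strand or the annotation. Columns were matched to libraries by sample title. Lengths and coordinates are those of the table.

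Reads were recovered as RPKM times length, scaled so that values became whole: 100% of values lay within 0.01 of a whole number. No count test could be made with 1 library per group. Ratios are of RPKM, with exact 95% intervals conditional on a feature's reads, and log2 differences use a pseudocount of 0.5 with a mean RPKM of at least 1. Features named were, per class and position (in exons or not), the 4 with most reads, up to 4 with the highest and lowest ratios among those with 40 reads and an interval excluding 1, list members with 20 reads, their hosts, and those at the length limit; hosts with several members and a few others were added after values were seen. The members and lists were chosen with earlier results of these data known. GENCODE M21 (1695 symbols matched) and RefSeq were used by symbol only, since their build, GRCm38, is not that of the table. The code was tested on simulated data. Python 3.11.15, numpy 2.4.6, pandas 2.3.3, scipy 1.17.1 and matplotlib 3.10.9 were used. Results for 1 host gene and its members are not reported here.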

Additional observations from a re-analysis of the deposited data

How the results depend on the processing

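The 2-fold counts depended on the limit on low values. With a mean RPKM of at least 5, 2 Mir features were higher and 2 lower, 0 snoRNAs were higher and 0 lower, and 2 others were higher and 2 lower. With at least 20 reads in place of the RPKM limit, 4 and 3 Mir, 2 and 0 snoRNAs and 13 and 8 others were higher and lower. With no RPKM limit the counts were 57 and 49, 13 and 9, and 88 and 67. At 1.5-fold they were 41 and 36 Mir, 17 and 6 snoRNAs, and 60 and 61 others. A pseudocount of 1 gave 9 Mir higher and 10 others lower, and one of 0.1 gave 4 snoRNAs and 33 others lower. Calling by the counting interval gave 42 others higher and 40 lower and 1 snoRNA lower. Apart from this last rule, shares over all features were not computed under these settings, so the counts have no background beside them.

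Over all short features, intervals above and below 1 numbered 22 and 22 when reads were halved as pairs, and 36 lay above 1 at a mean RPKM of 5. Shares over all features were not computed under these settings either. Of 55 named features, 30 had an interval excluding 1. Of these, 14 lost it when reads were halved. Under median-of-ratios scaling, which moved log2 values by 0.003, 1 lost it, Gm17036. Cluster members added after values were seen, such as Gm26224, Gm24452, Gm23187 and Gm26202, were not among the 55. The class medians stayed within 95% order-statistic intervals of the reported medians under every alternative run, from 0.22 to 0.37 for snoRNAs. These intervals are for the median over features, which are not replicates, and do not give the range of the features themselves. The one for snoRNAs is wide, from 0.01 to 0.53. The counts of exonic members stayed within 1.5 times, with any shared base counted at 204 Mir, 69 snoRNAs and 258 others. No paired analysis was possible because each group holds 1 library, and no library could be left out. Depth limits most members: only 356 of 2301 had 40 reads or more.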

Other observations

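Some short features lay opposite, rather than within, the exons of a longer gene. Of the 1063 members outside any longer feature on their own strand, 191 overlapped an exon of a feature on the other strand. Among 21 members wholly within exons of an opposite-strand feature of mean RPKM 10 or more, the level relative to that feature ran from 0.00315 to 10.1 with a median of 0.299; 5 were below 0.1 and 8 at or above 1. No source used here states whether strand was used in counting, although the library kit was a stranded one. The part that reads of the opposite-strand gene have in these levels was not tested. Gm55047, opposite Aars at 93.9 RPKM in treated cells and 94.6 in normal cells, had 2 reads in treated cells and 0 in normal cells.

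Of these 21, 3 lay opposite histone H2A genes. Gm55497, opposite H2ax, the variant phosphorylated at DNA breaks, had 415 reads in treated cells, against 664 in normal cells, a ratio of 0.631 (0.557 to 0.714), beside 0.648 for H2ax at 19.1 against 29.4 RPKM. Gm55635, opposite H2aj, had 401 reads in treated cells, against 453, and Gm56433, opposite H2ac25, had 633 against 686. All 3 stood above the RPKM of the histone gene, at 67.3 RPKM in treated cells, against 107 in normal cells, for Gm55497, 65.0 against 72.8 RPKM for Gm55635 and 105 against 113 RPKM for Gm56433. Histone H2A genes are near-identical in parts, so the assignment of these reads is uncertain. The 2 members with the most reads outside longer features, Gm17036 with 7876 reads in treated cells, against 7705, and Gm17606 with 7718 against 8138, had ratios of 1.03 and 0.958.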
